A study of Mus musculus with 18 samples.

Results

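The vascular endothelial growth factor (VEGF) family and its receptors were followed as 9 genes of 19938 measured: the ligands Vegfa, Vegfb, Vegfc and Pgf, the receptor tyrosine kinases Flt1, Kdr and Flt4, and the co-receptors Nrp1 and Nrp2. Members were taken by gene symbol, and each was read by 1 probe set of the Affymetrix arrays. The study had 18 arrays in 6 groups of 3. Hearts came from mice given the EglN inhibitor FG-4497 at 50 mg/kg into the peritoneum, or vehicle, both EglN1 WT. Soleus and quadriceps came from mice with a floxed EglN1 gene (KO) or a WT gene. KO and WT mice both carried an inducible Cre recombinase of skeletal muscle and both received tamoxifen for 3 days before harvest. All mice were on C57BL/6. The promoter that drives Cre, the animals' age and the interval from FG-4497 to harvest were not stated in the labels. Cre was described as that of skeletal muscle, so that the deletion was not meant to reach the endothelial cells of the same tissue. In which cells Cre acted was not tested. FG-4497, by contrast, was given to the whole animal.

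VEGF-A is the main growth signal for blood vessels and acts on endothelial cells through Kdr, also called VEGF receptor 2, which passes most of the signal. Flt1, VEGF receptor 1, binds VEGF-A, VEGF-B and placental growth factor tightly but signals weakly, and its soluble form acts as a trap. Flt4, VEGF receptor 3, binds VEGF-C and is best known from lymphatic vessels, and the neuropilins present VEGF to these receptors and also bind semaphorins. Vegfa is a textbook target of the hypoxia-inducible factors (HIF), whose alpha subunits are marked for degradation by the EglN prolyl hydroxylases, of which EglN1 is the main one in most tissues. In heart and skeletal muscle the muscle fibres are a main source of VEGF-A, and the receptors lie mostly on the endothelium.

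Promoter windows of the 3 members whose levels passed the test in FG-4497 hearts are shown, because HIF binds a core of the letters ACGTG or GCGTG. The windows are RefSeq sequences of the mouse build GRCm38.p6, from 250 bases before to 50 bases after a transcript start, read 5′ to 3′ on the strand of the gene. Capitals mark ACGTG or GCGTG on either strand (CACGT and CACGC on the strand shown).
Vegfa, upstream start, minus strand, chr17:46032328-46032627: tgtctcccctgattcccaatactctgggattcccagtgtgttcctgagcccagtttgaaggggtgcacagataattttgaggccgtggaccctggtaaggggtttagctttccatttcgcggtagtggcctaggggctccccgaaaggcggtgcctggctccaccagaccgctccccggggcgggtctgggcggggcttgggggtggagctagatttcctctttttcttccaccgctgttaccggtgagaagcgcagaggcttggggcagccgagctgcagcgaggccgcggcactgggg
Vegfa, downstream start, minus strand, chr17:46025114-46025413: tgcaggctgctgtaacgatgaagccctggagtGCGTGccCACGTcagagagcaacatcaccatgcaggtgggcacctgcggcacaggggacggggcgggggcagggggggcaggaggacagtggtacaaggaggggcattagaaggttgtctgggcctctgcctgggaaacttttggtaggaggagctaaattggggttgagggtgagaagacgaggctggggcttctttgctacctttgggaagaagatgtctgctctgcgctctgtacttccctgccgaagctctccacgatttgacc
Pgf, upstream start, minus strand, chr12:85177264-85177563: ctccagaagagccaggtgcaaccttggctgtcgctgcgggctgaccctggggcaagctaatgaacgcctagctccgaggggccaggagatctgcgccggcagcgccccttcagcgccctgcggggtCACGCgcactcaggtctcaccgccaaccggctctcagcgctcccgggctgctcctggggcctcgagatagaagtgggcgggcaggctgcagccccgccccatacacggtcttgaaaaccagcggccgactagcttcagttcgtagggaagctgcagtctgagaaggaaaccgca
Pgf, downstream start, minus strand, chr12:85175933-85176232: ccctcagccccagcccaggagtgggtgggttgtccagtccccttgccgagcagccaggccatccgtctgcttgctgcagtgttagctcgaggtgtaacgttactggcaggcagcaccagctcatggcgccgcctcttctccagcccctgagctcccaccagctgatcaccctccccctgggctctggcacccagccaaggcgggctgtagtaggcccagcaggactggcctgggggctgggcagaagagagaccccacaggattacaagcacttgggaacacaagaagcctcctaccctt
Flt1, minus strand, chr5:147725962-147726261: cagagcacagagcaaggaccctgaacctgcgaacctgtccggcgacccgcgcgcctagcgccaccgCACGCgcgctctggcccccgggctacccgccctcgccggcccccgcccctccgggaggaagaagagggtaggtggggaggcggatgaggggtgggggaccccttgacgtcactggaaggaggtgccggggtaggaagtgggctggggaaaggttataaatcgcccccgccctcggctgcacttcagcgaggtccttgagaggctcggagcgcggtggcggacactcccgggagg

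All 9 members matched the RefSeq table, with 11 windows in all. The upstream Vegfa window held neither core, and the downstream one, which lies inside the gene, held 1 copy of each, next to each other. Inside the gene such letters can be coding sequence of the longer transcript, and exons were not looked up. The 2 copies are therefore not to be read as a promoter site. The upstream Pgf window and the Flt1 window held 1 GCGTG core each, and the downstream Pgf window held none. Of the members that did not pass the test in heart, Vegfb, Kdr and Nrp2 had 2 GCGTG cores each, Nrp1 had 1, and Vegfc and Flt4 had none. In all, 7 of the 11 windows held either core, against 43.8% of the 32851 windows of this length in the table (19.6% held ACGTG and 32.4% held GCGTG). The cores were thus found both in members that passed the test and in members that did not, and a match of letters is no measured binding site. Bases beyond these windows were not searched, so that a window without a core does not show a gene without one.

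The arrays were alike in overall level: their median log2 values ran from 6.68 to 6.81, and within groups any 2 arrays correlated across genes with r of 0.986 to 0.995. Markers matched the labelled tissues: the mean log2 level of 8 cardiomyocyte genes was 12.57 to 12.70 in hearts and 7.50 to 8.06 in skeletal muscle, and that of 10 slow-fibre genes was 13.22 to 13.39 in soleus and 7.62 to 9.42 in quadriceps. Egln1 itself lay at 11.03 to 11.12 in KO soleus and 11.22 to 11.31 in WT soleus, and at 10.67 to 10.92 in KO quadriceps and 10.94 to 10.99 in WT quadriceps. The KO arrays did not overlap the WT arrays in either muscle, but the differences of -0.20 in soleus and -0.14 in quadriceps did not pass the test (limma, adjusted p = 0.40 and 0.435). Whether its probe set reads the floxed exons is not known from the files, so that Egln1 is a weak check of the deletion.

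**Figure D1:**
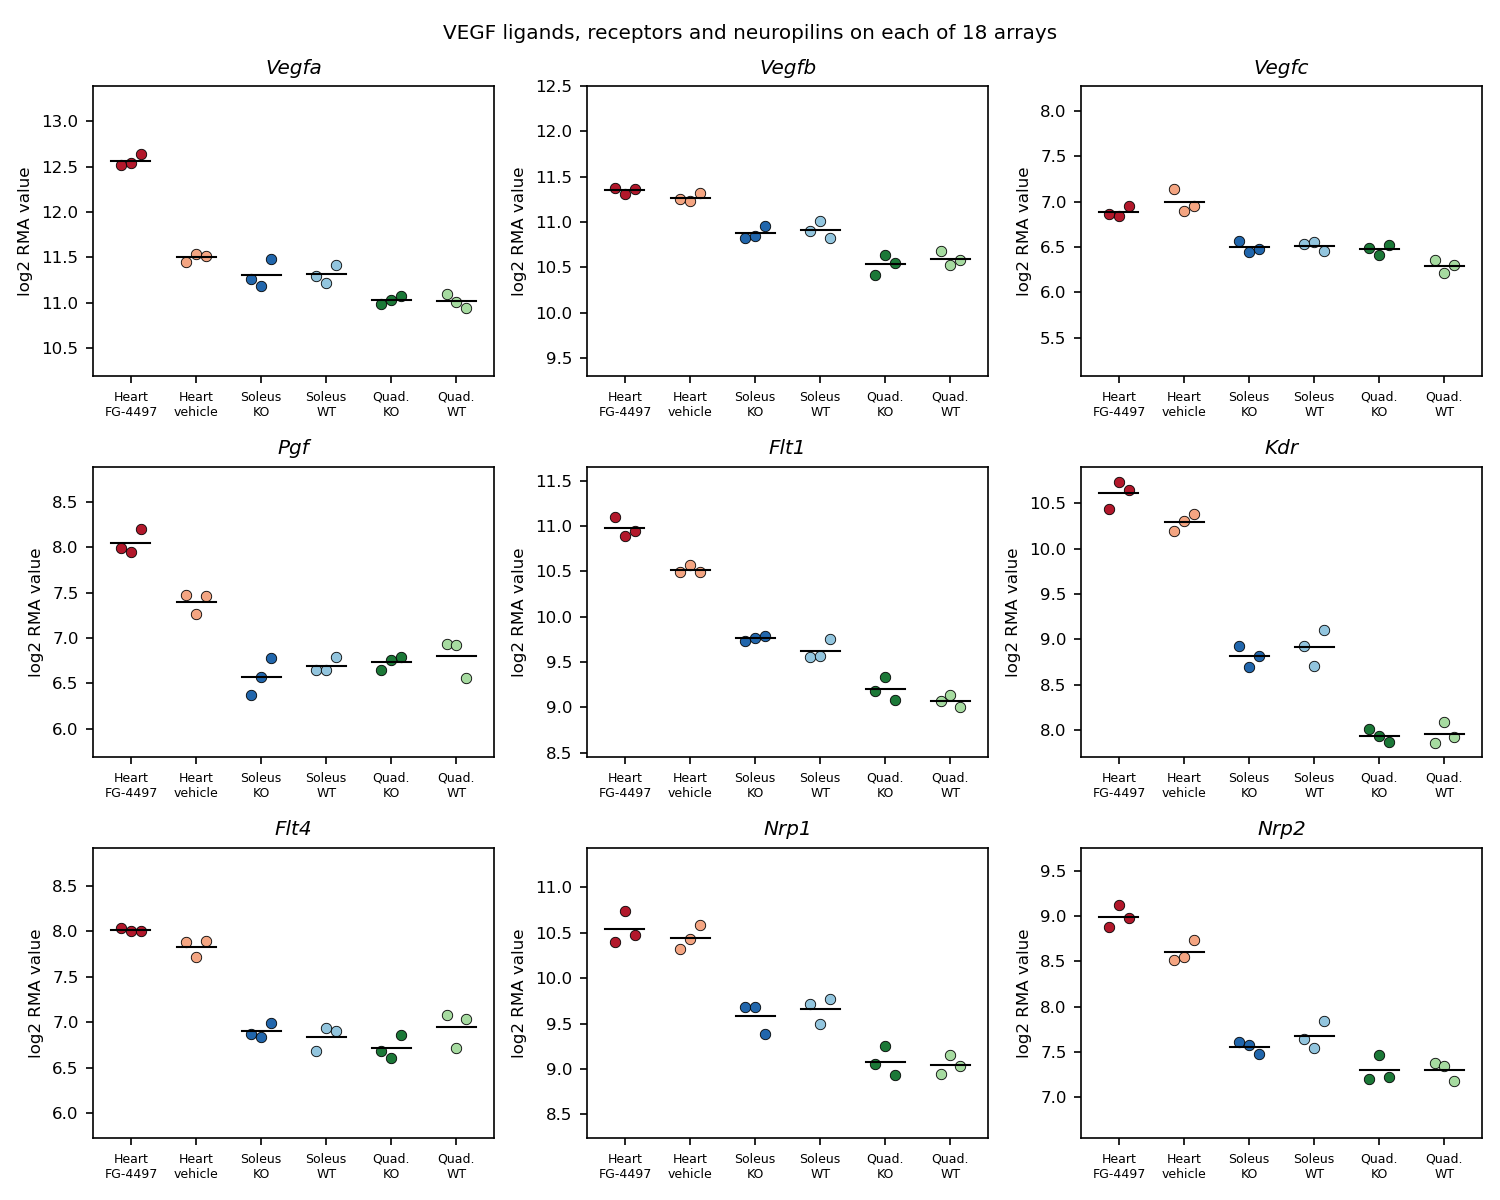
Log2 RMA value (vertical axis, the same span in each panel) of each member on each of the 18 arrays, by group (horizontal axis), with points for arrays and bars for group means. Vegfa, Pgf and Flt1 are higher in FG-4497 hearts than in vehicle hearts, and most members step up from quadriceps to soleus to heart. No member separates clearly between KO and WT muscle. Vegfc in quadriceps is the only one without overlap, by a narrow gap (WT up to 6.36, KO from 6.41). In quadriceps 17.1% of all genes tested had no overlap.

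In hearts of FG-4497 mice the ligands Vegfa and Pgf and the receptor Flt1 were higher than in vehicle hearts, Vegfa about 2.09-fold, Pgf 1.57-fold and Flt1 1.37-fold. No member was lower. Thus 3 of 9 members passed the test, where 2.23% of the 11963 genes tested did so in either direction and 1.58% were higher. The 9 differences had a median of 0.32 on the log2 scale, against 0 over all genes tested, and 8 of the 9 were positive. The arrays of the 2 groups did not overlap for 6 of 9 members, where 15.9% of all genes tested had no overlap.

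Vegfa, the central ligand of the family (chr17:46016993-46032377), had log2 values of 12.52, 12.54 and 12.64 in FG-4497 hearts, against 11.45, 11.54 and 11.52 in vehicle hearts. The 2 groups lay a full log2 unit apart. The difference was 1.06 (SE 0.08, 95% CI 0.89 to 1.23, limma adjusted p = 3.06e-05), and it passed the test under all 16 alternative settings, with values from 1.02 to 1.08. It ranked 41st by size among the 11963 genes tested.

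Pgf, which encodes placental growth factor, a ligand of Flt1 (chr12:85166637-85177785), had values of 7.99, 7.95 and 8.20 in FG-4497 hearts, against 7.47, 7.26 and 7.46 in vehicle hearts. All 3 treated hearts were above all 3 vehicle hearts. The difference was 0.65 (SE 0.10, 95% CI 0.44 to 0.86, limma adjusted p = 0.00484). Vegfb, like Vegfa also a ligand of Flt1 (chr19:6982472-6987651), overlapped between the groups. It had 11.38, 11.31 and 11.37 in FG-4497 hearts and 11.25, 11.23 and 11.32 in vehicle hearts. Its difference of 0.08 had a 95% CI of -0.08 to 0.25, with an upper limit of 1.19-fold. Vegfc, the lymphatic ligand (chr8:54077532-54186454), had 6.86, 6.84 and 6.95 in FG-4497 hearts and 7.14, 6.90 and 6.95 in vehicle hearts, a difference of -0.12 (95% CI -0.31 to 0.08, adjusted p = 0.759). Of the 4 ligands, then, the 2 that passed the test were Vegfa and Pgf.

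Among the receptor kinases, Flt1 (chr5:147561604-147726438) had values of 11.10, 10.89 and 10.94 in FG-4497 hearts, against 10.49, 10.57 and 10.49 in vehicle hearts. The groups did not overlap. The difference was 0.46 (SE 0.08, 95% CI 0.27 to 0.64, limma adjusted p = 0.0166). This call was close to the threshold: it was lost without vehicle replicate 1 (0.44, adjusted p = 0.0588), without vehicle replicate 3 (0.45, adjusted p = 0.0823), without FG-4497 replicate 1 (0.40, adjusted p = 0.0644) and with no filter on low genes (0.46, adjusted p = 0.0719). Its size moved little in these fits.

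Kdr, the main signalling receptor (chr5:75932827-75979072), had 10.44, 10.74 and 10.65 in FG-4497 hearts, against 10.20, 10.31 and 10.38 in vehicle hearts. The groups were apart by a small gap, and the difference of 0.32 (95% CI 0.10 to 0.53) did not pass the test (adjusted p = 0.155). Flt4 (chr11:49609679-49652739) had 8.04, 8.01 and 8.0 in FG-4497 hearts, against 7.88, 7.72 and 7.89 in vehicle hearts, also without overlap, with a difference of 0.19 (95% CI 0.01 to 0.36, adjusted p = 0.388). Of the 3 receptor kinases, all had higher arrays in treated hearts, and Flt1 was the member that passed.

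The neuropilins gave different values. Nrp2 (chr1:62703317-62818692) had 8.88, 9.12 and 8.98 in FG-4497 hearts, against 8.51, 8.55 and 8.74 in vehicle hearts. The groups did not overlap, and the difference of 0.39 (95% CI 0.18 to 0.60) missed the threshold (adjusted p = 0.069) and passed it in 3 of 16 alternative fits. Nrp1 (chr8:128358591-128505476) had 10.40, 10.74 and 10.48 in FG-4497 hearts and 10.32, 10.43 and 10.59 in vehicle hearts, with overlap and a difference of 0.09 (95% CI -0.15 to 0.33, adjusted p = 0.883). The difference between the changes of the 2 neuropilins was not tested.

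Because the tissue was analysed in bulk, fewer cells of a type and less RNA per cell cannot be told apart, and the receptors are read against markers of endothelial cells. Of 20 endothelial markers, 19 were measured and all 19 lay above the filter level in every group. Their mean log2 level was 9.78 to 9.85 in FG-4497 hearts and 9.72 to 9.77 in vehicle hearts, a small difference without overlap. Their median difference was -0.06, with 3 of 19 higher and 2 of 19 lower. Cldn5, a tight junction protein, rose by 1.44, Icam2, an adhesion protein, by 0.82, and Vwf, the von Willebrand factor, by 0.51, whereas Sox18, an endothelial transcription factor, fell by 1.11 on the log2 scale. With the endothelial level of each heart as a covariate, Vegfa kept its call, Pgf had a difference of 0.47 (adjusted p = 0.481) and Flt1 one of 0.63 (adjusted p = 0.119). The part of endothelial content in the changes of Pgf and Flt1 was not tested beyond this fit, in which the covariate separates the 2 groups of hearts.

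**Figure D2:**
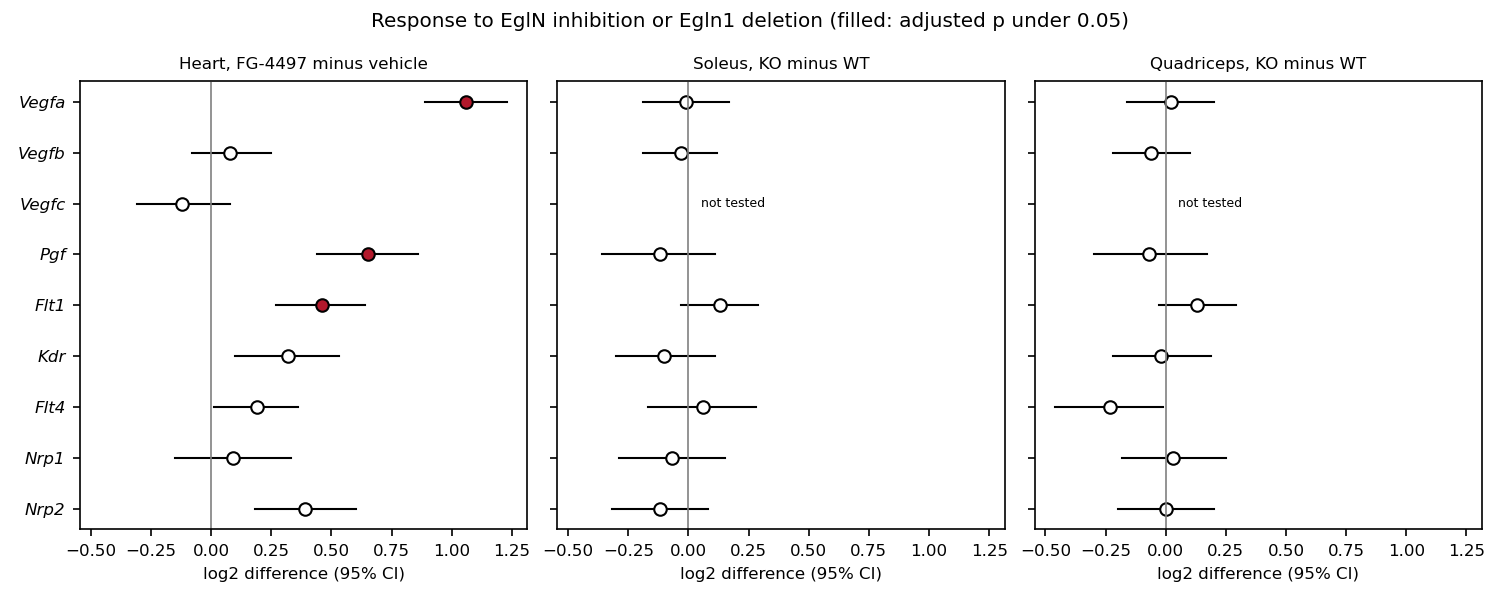
Log2 difference (horizontal axis) of each member (vertical axis) for FG-4497 minus vehicle in heart and for KO minus WT in soleus and quadriceps, with points for the limma estimate, lines for its 95% confidence interval and filled points where the adjusted p was under 0.05. Filled points appear for Vegfa, Pgf and Flt1 in heart, and all 16 muscle estimates lie between -0.23 and 0.13.

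Other genes of the pathway were read against the 2.23% of all genes called and the 1347 of 11963 with an unadjusted p under 0.05. Of 37 measured genes of VEGF signalling, which are adaptors, kinases, phosphatases and the semaphorin and plexin partners of the neuropilins, 33 were tested, 1 rose and 1 fell, 10 had an unadjusted p under 0.05, and the median difference was 0.01. The gene that rose was Sema3f, a semaphorin that binds Nrp2 (0.51, adjusted p = 0.0137), and the one that fell was Plxnd1, a plexin of endothelial cells (-0.34, adjusted p = 0.0456). Of 14 tested genes for enzymes and matrix proteins that release or hold VEGF, none passed limma's test and 2 had an unadjusted p under 0.05. The largest difference among them was that of Thbs1, thrombospondin 1 (0.52, adjusted p = 0.249). Of 10 tested tip cell and angiogenesis genes, 1 rose and 1 fell, and 7 had an unadjusted p under 0.05. Hey1, a Notch target, rose by 0.66 (adjusted p = 0.0106), and Aplnr, the apelin receptor, fell by 1.68 (adjusted p = 2.60e-05).

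Known HIF targets other than the family moved together with Vegfa in the treated hearts. Of 26 tested, 16 rose and 1 fell, with a median difference of 0.56. Adm, which encodes adrenomedullin, rose by 3.25 (9.5-fold), Bhlhe40, a transcription factor, by 1.78, Ero1a, an oxidase of protein folding, by 1.66, and Pfkfb3, a regulator of glycolysis, by 1.5. Of 17 tested regulators of Vegfa, the one that passed was Egln3, itself a HIF target, which was 2.12-fold higher (1.08, adjusted p = 4.62e-05). Vegfa thus changed by about as much as Egln3 and by less than Adm. The transcripts of the HIF subunits did not pass the test, at -0.25 for Hif1a (adjusted p = 0.280) and -0.07 for Epas1 (adjusted p = 0.877), nor did Egln1 at 0.24 (adjusted p = 0.190). Other cell types also had called markers: Prox1, a lymphatic marker also made by heart muscle cells, fell by 0.46, Postn, a fibroblast gene, fell by 0.42, and Alas2, an erythroid gene, rose by 0.96. The mean level of 5 measured lymphatic markers overlapped, at 8.26 to 8.42 in FG-4497 hearts and 8.34 to 8.46 in vehicle hearts, and that of 2 erythroid genes did not, at 8.49 to 8.90 in FG-4497 hearts and 7.85 to 8.18 in vehicle hearts. All 8 fibroblast markers had negative differences (median -0.14, 1 of 8 called), and their mean level was 9.06 to 9.10 in FG-4497 hearts and 9.23 to 9.28 in vehicle hearts, without overlap. The part of these cell types in the members' changes was not tested.

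**Figure D3:**
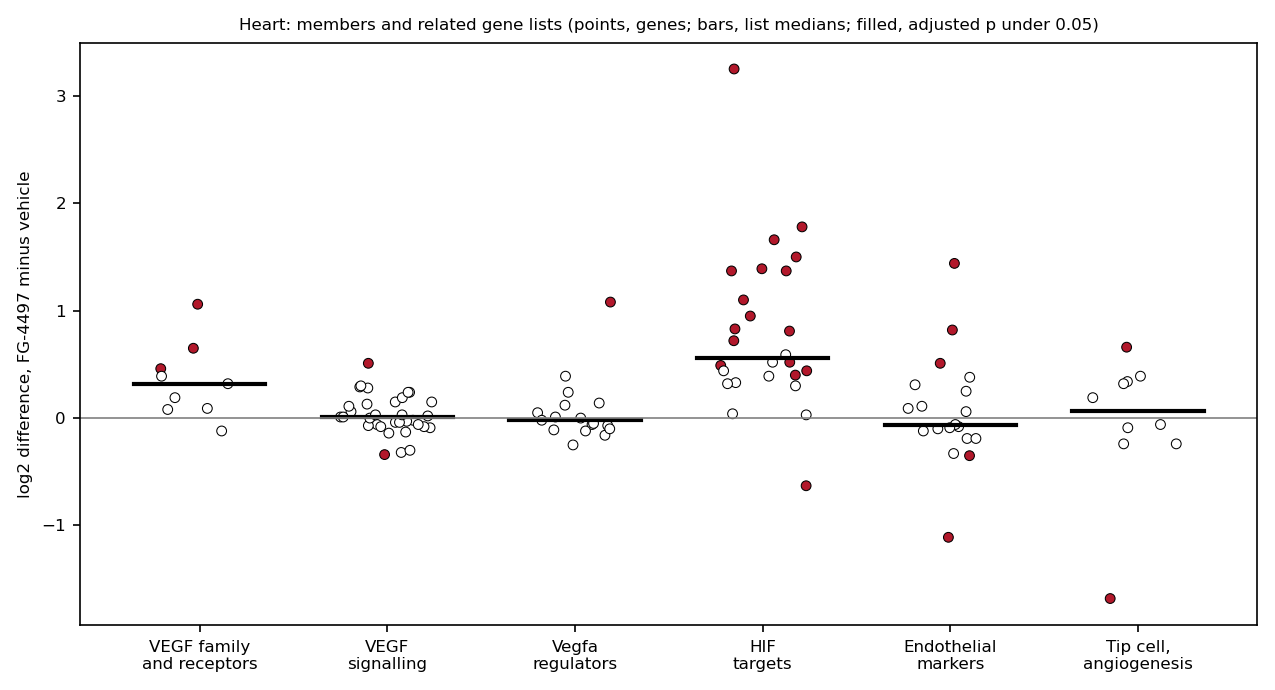
Log2 difference between FG-4497 and vehicle hearts (vertical axis) for the tested genes of 6 lists (horizontal axis), with points for genes, bars for list medians and filled points where the adjusted p was under 0.05. The medians are 0.32 for the 9 VEGF members, 0.56 for 26 HIF targets, and between -0.06 and 0.07 for the other 4 lists.

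Between the muscles labelled KO and WT, in which Egln1 itself did not pass the test, no VEGF family member that was tested had a called difference. In soleus, 0 of 8 tested members passed limma's test and none had an unadjusted p under 0.05, where 0.184% of all genes tested passed and 905 of 11963 had an unadjusted p under 0.05. KO and WT arrays of soleus overlapped for all 8, where 12.7% of all genes tested had no overlap. In quadriceps 0 of 8 passed and 1 had an unadjusted p under 0.05, where 0.794% of all genes passed and 1459 had an unadjusted p under 0.05. Vegfc was the member not tested, since its mean over the 12 muscle arrays, 6.44, was below the filter level of 6.54.

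Vegfa had values of 11.26, 11.18 and 11.48 in KO soleus, against 11.30, 11.22 and 11.42 in WT soleus. In quadriceps it had 10.99, 11.03 and 11.08 in KO muscle and 11.10, 11.01 and 10.94 in WT muscle. The ranges overlapped in both muscles. The differences were -0.01 in soleus (95% CI -0.19 to 0.17) and 0.02 in quadriceps (95% CI -0.16 to 0.20). Averaged over both muscles the difference was 0.01 (95% CI -0.13 to 0.14). The upper 95% limit was 1.10-fold averaged, 1.13-fold in soleus and 1.15-fold in quadriceps, below the 2.09-fold difference seen in FG-4497 hearts. These limits hold for muscles labelled KO, in which the fall of Egln1 itself did not pass the test. No member passed in the averaged comparison either (1 of 8, Flt1, had an unadjusted p under 0.05), where 0.911% of all genes did.

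The other tested members had no called difference. In soleus the 8 estimates ran from -0.12 to 0.13 with adjusted p from 0.785 to 0.992, and none of the confidence limits exceeded 0.36 in size. In quadriceps they ran from -0.23 to 0.13, with limits of at most 0.46. Flt1 had 9.73, 9.77 and 9.79 in KO soleus and 9.56, 9.57 and 9.75 in WT soleus, and 9.18, 9.34 and 9.08 in KO quadriceps and 9.07, 9.14 and 9.0 in WT quadriceps. Its difference was 0.13 in each muscle and 0.13 when averaged (95% CI 0.01 to 0.25, adjusted p = 0.374), so that it did not pass. Pgf had 6.37, 6.57 and 6.78 in KO soleus and 6.65, 6.65 and 6.79 in WT soleus, with an averaged difference of -0.10 (95% CI -0.28 to 0.08). Kdr, at 8.93, 8.70 and 8.82 in KO soleus and 8.93, 8.71 and 9.10 in WT soleus, had an averaged difference of -0.06 (95% CI -0.21 to 0.10).

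Flt4 had the lowest unadjusted p of the members in quadriceps, with values of 6.68, 6.60 and 6.86 in KO muscle and 7.08, 6.72 and 7.03 in WT muscle. The ranges overlapped, and the difference of -0.23 (95% CI -0.46 to -0.01) had an unadjusted p of 0.0441 and an adjusted p of 0.388. In soleus its difference was 0.06, and the difference between the 2 muscles, 0.29, did not pass (adjusted p = 0.755). For none of 8 tested members did the KO effect pass as different between the muscles by limma's test, and 0 had an unadjusted p under 0.05, where 0.00836% of all genes tested did and 783 had an unadjusted p under 0.05. Vegfc, below the filter level, had 6.49, 6.41 and 6.52 in KO quadriceps, against 6.36, 6.21 and 6.30 in WT quadriceps. These arrays did not overlap, as was so for 17.1% of all genes tested in quadriceps. When a lower filter level let it be tested, its difference of 0.19 had an adjusted p of 0.232 in one fit and 0.36 in the other, and its difference in soleus was -0.01.

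The related gene lists gave few calls in the muscles too. None of 34 tested VEGF signalling genes, 15 VEGF availability genes, 17 Vegfa regulators, 19 endothelial markers and 9 tip cell genes passed limma's test in soleus, in quadriceps or averaged. In that order of lists, 3, 1, 4, 4 and 4 of them had an unadjusted p under 0.05 in soleus, 7, 0, 2, 2 and 2 in quadriceps, and 9, 2, 5, 4 and 3 averaged. Of 27 tested HIF targets, Stc2, the hormone stanniocalcin 2, was the one that rose, by 0.78 in quadriceps (adjusted p = 0.0213) and by 0.51 averaged (adjusted p = 0.0329). The median of the HIF targets was 0.02 in soleus and 0.02 in quadriceps, against medians of 0 and -0.02 over all genes. The mean endothelial level was 9.10 to 9.20 in KO soleus and 8.99 to 9.16 in WT soleus, and 8.48 to 8.68 in KO quadriceps and 8.49 to 8.61 in WT quadriceps, with overlap in both muscles.

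The difference between the FG-4497 effect in heart and the averaged KO effect in muscle was itself tested in a fit of all 18 arrays. It passed for 2 of 9 members, where 2.99% of all genes tested passed and 1.87% had a positive value. For Vegfa it was 1.06 (95% CI 0.85 to 1.26, limma adjusted p = 2.69e-06) and for Pgf 0.75 (95% CI 0.46 to 1.03, adjusted p = 0.00352). For Flt1 it was 0.33 (95% CI 0.13 to 0.53, adjusted p = 0.0777), for Nrp2 0.45 (95% CI 0.19 to 0.70, adjusted p = 0.0533) and for Kdr 0.37 (95% CI 0.12 to 0.63, adjusted p = 0.125). Flt1 and Nrp2 both passed without KO quadriceps replicate 2 (adjusted p = 0.0348 and 0.0234). Organ, inhibitor against deletion, and experiment cannot be told apart in this comparison.

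In WT mice 6 of 8 tested members were higher in soleus than in quadriceps: Kdr by 0.96 (1.94-fold), Nrp1 by 0.61, Flt1 by 0.56, Nrp2 by 0.37, Vegfb by 0.31 and Vegfa by 0.30. Pgf and Flt4 did not pass, at -0.11 (95% CI -0.32 to 0.11) and -0.10 (95% CI -0.31 to 0.10). This has to be read against a background in which 49.7% of all genes tested passed and 23.0% were higher in soleus. In the 2 groups, 6 of 8 members had no overlap, where 56.5% of all genes had none, a share not far from that of the members.

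Kdr had the largest of these differences, with values of 8.93, 8.71 and 9.10 in WT soleus, against 7.86, 8.09 and 7.92 in WT quadriceps. KO muscles gave 8.93, 8.70 and 8.82 in soleus and 8.01, 7.94 and 7.87 in quadriceps. Every soleus array was above every quadriceps array, and the KO difference was 0.88. Nrp1 had 9.71, 9.50 and 9.77 in WT soleus, against 8.94, 9.15 and 9.03 in WT quadriceps, and a difference of 0.51 in KO muscles. Its arrays did not overlap either, and the same held for 6 members over all 6 soleus and all 6 quadriceps arrays. The share of all genes was not counted for that split, and was 56.5% for the WT arrays alone. In KO mice the same 6 members passed, with 45.7% of all genes tested passing, 23.7% higher and 49.4% without overlap, at 0.27 for Vegfa, 0.34 for Vegfb, 0.56 for Flt1 and 0.25 for Nrp2. The calls of Nrp2 and Vegfa in KO mice rested on single arrays. Nrp2 lost its call without KO soleus replicate 1 or 2 or KO quadriceps replicate 1 or 3 (adjusted p from 0.0643 to 0.101), and Vegfa lost it without KO soleus replicate 3 (adjusted p = 0.0507).

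Endothelial markers ran the same way between the muscles, with 18 of 19 higher in WT soleus and a median difference of 0.49. Their mean level was 8.99 to 9.16 in WT soleus and 8.49 to 8.61 in WT quadriceps. Emcn, the capillary and venous sialoprotein endomucin, was higher by 1.10, and Pecam1, an adhesion molecule of all endothelium, by 0.86. Mural cell markers did so as well, with 8 of 9 higher and a median of 0.64. Kdr was thus above the endothelial median, Nrp1 and Flt1 near it and Nrp2 and the ligands Vegfa and Vegfb below it, and the part of endothelial content in these differences was not tested. Among regulators of Vegfa, Ppargc1a, a coactivator of oxidative metabolism that also induces Vegfa, was higher in WT soleus by 1.19 (adjusted p = 2.74e-06), and Epas1, the HIF subunit abundant in endothelium, by 0.57. Vegfd, the remaining ligand of Flt4, which the list of signalling genes held, was higher by 0.92 (adjusted p = 8.41e-05). Egln3, the inducible prolyl hydroxylase, was higher by 1.66. HIF targets were split, with 8 of 27 higher and 12 lower in WT soleus, among them Pfkfb3 at -3.37 and Slc16a3, the lactate exporter of fast fibres, at -2.48.

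**Figure D4:**
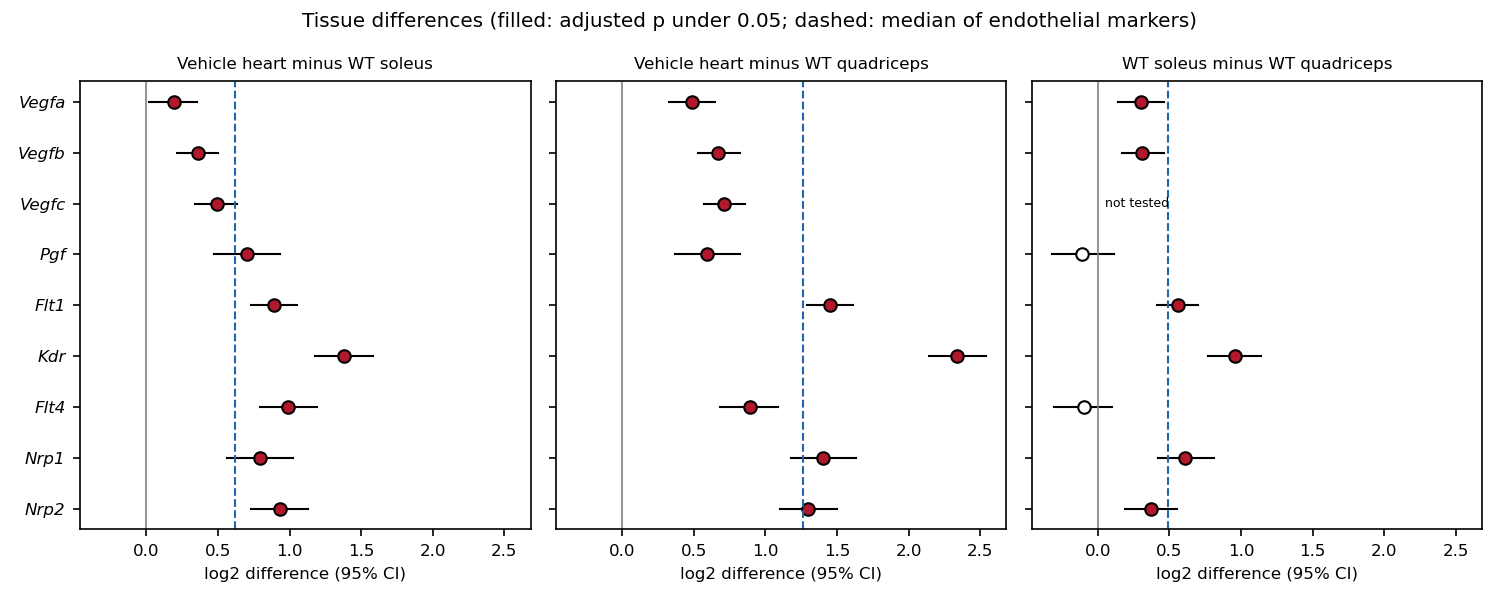
Log2 difference (horizontal axis) of each member (vertical axis) for vehicle heart minus WT soleus, vehicle heart minus WT quadriceps and WT soleus minus WT quadriceps, with points for the limma estimate, lines for its 95% confidence interval, filled points where the adjusted p was under 0.05, and a dashed line at the median of 19 endothelial markers (0.62, 1.26 and 0.49). Kdr lies furthest to the right in each panel, and Vegfc passed the filter in the heart panels through the hearts alone.

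Vehicle hearts were above WT muscles for 8 members, not counting Vegfc, whose mean of 6.61 over the 18 arrays passed the filter level of 6.58 through the hearts alone, so that it had to differ. For these 8, against WT soleus the differences ran from 0.19 for Vegfa (adjusted p = 0.0449) to 1.38 for Kdr, and against WT quadriceps from 0.49 for Vegfa to 2.34 for Kdr, which was 5.06-fold. In the 2 comparisons 60.1% and 66.9% of all genes tested passed, and 30.3% and 32.7% were higher in heart. The arrays of the 8 members did not overlap in either comparison, as was so for 65.7% and 70.9% of all genes tested. Flt1 was higher in vehicle hearts by 0.89 and 1.45, Flt4 by 0.99 and 0.89, Nrp1 by 0.79 and 1.40 and Nrp2 by 0.93 and 1.30 over WT soleus and WT quadriceps in that order. Pgf was higher by 0.70 and 0.59 and Vegfb by 0.36 and 0.67. All WT muscle arrays of Vegfc lay below the filter level, and the mean of the vehicle hearts lay at least 0.42 (1.34-fold) above either muscle, given as a description. Of endothelial markers 18 of 19 were higher in vehicle hearts than in WT soleus and 19 of 19 than in WT quadriceps. Hearts and muscles came from separate experiments, and tissue and experiment cannot be told apart.

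The Vegfa difference between vehicle heart and WT soleus was the smallest of the 8 and the least secure. It kept its call in 8 of 14 alternative fits, and without WT soleus replicate 2 it was 0.13 (adjusted p = 0.197). The call was also lost without WT soleus replicate 1 (adjusted p = 0.0812) and without vehicle heart replicate 2 (0.117) or 3 (0.093). For Vegfb, Pgf, Flt1, Kdr, Flt4, Nrp1 and Nrp2, vehicle hearts lay above all 12 muscle arrays, KO and WT. The same held for Vegfc, which had to differ because of the filter. How many of all genes did so was not counted. Against WT soleus and WT quadriceps alone, 65.7% and 70.9% of all genes tested had no overlap. For Vegfa the lowest vehicle heart, at 11.45, overlapped KO soleus, whose highest array was at 11.48. FG-4497 hearts were far above all of these.

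Across the 6 groups, then, Vegfa, Vegfb, Flt1, Kdr, Nrp1 and Nrp2 had the same order by tissue: both quadriceps groups lowest, both soleus groups next and both heart groups highest. Within each muscle the neighbouring KO and WT groups overlapped for all 6. At each step between tissues, the 2 groups next to each other in the order of means did not overlap. How many of all genes had this order was not counted, so that it is not shown to be particular to the family. Of all genes tested, 56.5% had no overlap between WT soleus and WT quadriceps, and 65.7% had none between vehicle heart and WT soleus. For Vegfa, vehicle heart still overlapped KO soleus, which is not its neighbour in that order. For Vegfa the steps between tissues were 0.27 from KO quadriceps to KO soleus and 0.19 from WT soleus to vehicle heart. The further step up to FG-4497 heart, 1.06, was the largest. For Kdr the steps between tissues were 0.86 and 1.38 and that between heart groups 0.32. Pgf and Flt4 did not order the 4 muscle groups, which all overlapped with their neighbours, and showed a step of 0.59 and 0.89 up to vehicle heart. For Vegfb, Vegfc and Nrp1 the 2 heart groups overlapped.

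The members' deviations from their group means over the 18 arrays give a further description, with no test. Nrp1 and Nrp2 deviated together (Pearson r 0.803), Kdr went with Nrp1 (0.663) and Nrp2 (0.604), and Vegfa went with Pgf (0.642), while Flt1 and Kdr did so little (0.105). Among all genes above the filter level, those closest to Nrp1 were Fli1 (0.885), an endothelial transcription factor, Aplnr (0.869) and Fscn1 (0.852). Those closest to Kdr were Casp9 (0.876), Rbm18 (0.856) and Tedc2 (0.847). For Flt1 they were Nt5e (0.883), Hint2 (0.882) and Prkch (0.874). For Flt4 they were Pde7a (0.82), 4430402I18Rik (0.82) and Susd6 (0.814). For Nrp2 they were Cdk5rap2 (0.805), Nrp1 (0.803) and Slc38a1 (0.802). Those closest to Vegfa were Larp4 (0.837), Nhlrc3 (0.825) and Ubtf (0.814), and those closest to Pgf were Snx29 (0.892), Zfp729a (0.874) and Hoga1 (0.869). For Vegfb they were Ampd3 (0.936), Rps29 (0.897) and Erbin (0.89), and for Vegfc Zbtb49 (0.897), Rce1 (0.859) and Crtc1 (0.825). Over the 6 group means, Pgf ran closest to Adamts9 and P4ha2 (0.996 each) and Vegfa to Rasd1 and Rbm24 (0.998 each). The points share 6 group means, and 12 of them come from 6 pairs of muscles with the same label number, so that they are not independent, and the highest of 11962 correlations over so few points are large in any case.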

How the data were processed

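The authors deposited log2 expression values from robust multi-array average, a method that corrects background, normalizes by quantiles and combines probes (RMA in the submitters' processing notes). Neither its version nor which arrays were normalized jointly is stated in the labels. The values were used as deposited. Of 35556 probe sets, 21789 named 1 gene, and symbols were updated by gene identifier against GRCm38.p6 for 21698. Each of 19938 genes was read by its brightest probe set. Genes whose mean lay below the 40th percentile (6.61 in heart, 6.54 in muscle, 6.58 over all arrays) were left out, which left 11963 in each fit. The 9 members and the related gene lists were chosen with earlier results of these data known.

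Tests used limma 3.58.1 in R 4.3.3. The 6 heart arrays were fitted alone. The 12 muscle arrays, and all 18 for comparisons across experiments, were fitted with the number in the array labels as a random block (consensus correlation 0.18 and 0.21). That number joins 1 soleus and 1 quadriceps array and was read as an animal, which the labels do not state; deviations of the 6 pairs from their group means correlated at -0.002 to 0.384. Calls were made at an adjusted p under 0.05 (Benjamini-Hochberg, over all genes tested). Changes are log2 differences with moderated standard errors. With 3 against 3 arrays an exact permutation test cannot go below p = 0.1. The fits were also run on simulated arrays, drawn independently and so without the correlation by label number. No conclusion is drawn from that run here. There is no read depth, and precision is limited by having 3 arrays per group. Named genes were all 9 members, Egln1, Hif1a and Epas1, up to 4 called genes with the largest change per list (where none was called, the gene of largest change), and the 3 genes most like a member. RefSeq promoter windows were searched with Python 3.11.15.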

Additional observations from a re-analysis of the deposited data

How the results depend on the processing

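Under 31 alternative settings (filters, array weights, repeated quantile normalization, another prior, covariates, blocks and each array left out), 1464 values of single members were recomputed. Of these, 1433 were counted as keeping their side of the threshold, 17 lost a call and 13 gained one. The 1433 include Vegfc in muscle with no filter, which had no call in the main fit to keep. In addition, 1 uncalled difference moved beyond its standard error (Nrp1 in heart, -0.10 with the endothelial covariate). No called difference changed sign, and uncalled differences near 0 could do so. In heart, 3 members were called, and 5 with a trended and robust prior, which added Kdr and Nrp2, and 1 with the endothelial level as a covariate. Leaving out 1 heart array gave 2 to 3. For the FG-4497 effect minus the KO effect, leaving out 1 array gave 2 to 4 members, the highest without KO quadriceps replicate 2. KO minus WT gave 0 members under every setting in soleus, in quadriceps and averaged. Vegfc, tested in muscle only with no filter or with the percentile taken over all probe sets, an alternative chosen after seeing the data, was higher in WT soleus than in WT quadriceps (0.23, adjusted p = 0.0107 and 0.00423). Between the KO muscles the same 2 fits gave 0.03 (limma adjusted p of 0.7 and 0.774). Vegfc lay below the filter level of the main fit in muscle, and 49.7% of all genes tested passed between the WT muscles there. Counts over all genes moved more: 68 to 442 in heart against 267, 6 to 67 in KO soleus against 22, 26 to 226 in KO quadriceps against 95, 61 to 258 averaged against 109, and 0 to 3 for the difference between muscles against 1. The cause was not tested. The replicate numbers of the titles do not pair samples (r from -0.308 to 0.164 between same-numbered arrays), and with that number as a replicate block 3 members were called in heart and 0 in each muscle. With no replicate block on the label number, 1 of 108 member results under either block setting changed its call, Nrp2 for the FG-4497 effect minus the KO effect (0.45, adjusted p = 0.0399). The 3 arrays of a group limit what small differences can be seen.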
